A study of Arabidopsis thaliana with 6 samples.

Results

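Protochlorophyllide oxidoreductase (POR) is encoded by 3 genes in Arabidopsis thaliana, PORA (AT5G54190), PORB (AT4G27440) and PORC (AT1G03630). They were taken from the expression table by locus identifier, and all 3 were found among its 24487 genes. Their transcripts were compared between seedlings of the line atino80-6 and wild-type (WT) seedlings. Each genotype was represented by 3 libraries, and all seedlings were 4 days old and had been kept at 22 °C in continuous darkness on nutrient agar after a dark cold treatment. RNA came from whole seedlings, so that fewer cells of a type and less RNA per cell cannot be told apart. The labels give neither the kind of allele in atino80-6, nor the ecotype, nor the number of seedlings per sample, nor whether replicates were separate cultures, so p-values measure only the spread between these samples.

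POR reduces protochlorophyllide to chlorophyllide, and in flowering plants the enzyme works only while it absorbs light. A seedling in darkness therefore stops chlorophyll synthesis at protochlorophyllide, which it stores with POR and NADPH in the prolamellar body of the etioplast. In Arabidopsis PORA and PORB are the dark-expressed forms. The PORA transcript is lost after illumination, PORB is kept in darkness and light, and PORC is known as the form of light-grown green tissue.

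INO80 (AT3G57300), the chromatin remodelling ATPase after which the line is named, had 28174, 33013 and 33322 normalized counts in atino80-6 replicates 1 to 3, against 5586, 6173 and 5758 in WT replicates 1 to 3. The log2 change was 2.43 ± 0.10 (SE; limma adjusted p = 2.8e-06). The transcript was thus higher in the line named for this gene, and every direction given here rests on the labels. Libraries held between 18446028 and 24156610 reads. Atino80-6 replicate 3 and WT replicate 1 differed most from their own genotypes. Chi-square over degrees of freedom, taken between the reads of 2 replicates, was at least 18.4 for every pair that held either library, and 7.38 and 5.35 for the remaining atino80-6 and WT pairs.

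PORB was the most abundant of the family, PORA followed it and PORC was far below them, in all 6 libraries and on the length-corrected FPKM scale (fragments per kilobase of transcript, scaled for sequencing depth). The level of PORB was between 1.69 and 2.07 times that of PORA in atino80-6 libraries and between 1.46 and 1.59 times in WT libraries. PORA was 14.96 to 20.8 times as abundant as PORC in atino80-6 and 20.9 to 27.9 times in WT. Among all genes in the table PORB ranked within the top 1.58% by FPKM in each library and PORA within the top 3.34%. PORC ranked within the top 35.0% to 44.5% in atino80-6 libraries and 46.7% to 50.5% in WT libraries.

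**Figure D1:**
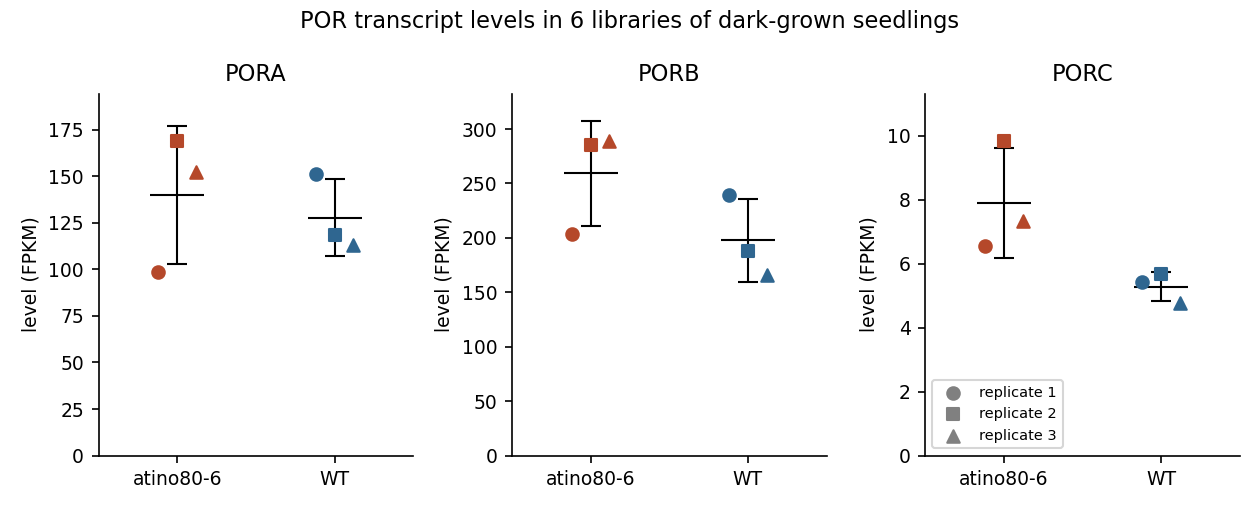
Level of each POR gene (FPKM, linear axes from 0) in the 3 atino80-6 and the 3 WT libraries; symbols mark the replicate number, and black bars give the mean ± SD (n = 3). The genotypes overlap for PORA and PORB, whereas all 3 atino80-6 values of PORC, between 6.57 and 9.85 FPKM, lie above the WT values, the highest of which is 5.68 FPKM.

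PORA, the form whose transcript light removes, did not differ detectably between the genotypes. It stood at 98.3, 169 and 152 FPKM in atino80-6 replicates 1 to 3, against 151, 119 and 113 FPKM in WT replicates 1 to 3. The atino80-6 libraries enclosed the whole WT range, with replicate 1 below and the others above it. The means were 140 ± 37.0 FPKM in atino80-6 and 128 ± 20.6 FPKM in WT (SD, n = 3 each). The log2 change on normalized counts was 0.11 ± 0.20 (SE; limma adjusted p = 0.71). Its 95% interval, from -0.34 to 0.56, spans fold changes of 0.787 to 1.47. Without atino80-6 replicate 2 the log2 change was -0.050 and without atino80-6 replicate 1 it was 0.34 (adjusted p = 0.11), so a single library sets its direction and size. In the authors' deposited table PORA had a log2 fold change of 0.13 (adjusted p = 0.65).

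PORB, the form kept in darkness and light, was higher on average in atino80-6 but missed the threshold. It stood at 204, 286 and 289 FPKM in atino80-6 replicates 1 to 3, against 240, 188 and 166 FPKM in WT replicates 1 to 3. The genotypes overlapped because atino80-6 replicate 1 was below WT replicate 1. The means were 260 ± 48.2 FPKM in atino80-6 and 198 ± 38.0 FPKM in WT (SD, n = 3 each), a ratio of 1.31. The log2 change was 0.39 ± 0.17 (SE; limma adjusted p = 0.11). The fold interval ran from 1.00 to 1.72. PORB passed without WT replicate 1 (0.54, adjusted p = 0.034), without atino80-6 replicate 1 (0.56, adjusted p = 0.032) and without atino80-6 replicate 3 and WT replicate 1 together (0.45, adjusted p = 0.043). In the authors' deposited table it had 0.39 with adjusted p = 0.053.

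PORC, the green-tissue form, rose in atino80-6 at a low level. It stood at 6.57, 9.85 and 7.33 FPKM in atino80-6 replicates 1 to 3, against 5.42, 5.68 and 4.78 FPKM in WT replicates 1 to 3. All atino80-6 values were above all WT values, and the atino80-6 spread was set by replicate 2. The means were 7.92 ± 1.72 FPKM in atino80-6 and 5.29 ± 0.464 FPKM in WT (SD, n = 3 each). The log2 change was 0.56 ± 0.16 (SE; limma adjusted p = 0.028), with a fold interval of 1.14 to 1.91. The call was narrow. Adjusted p was 0.052 without WT replicate 2, 0.099 without WT replicate 3 and 0.093 without atino80-6 replicate 2. In the authors' deposited table PORC had a log2 fold change of 0.58 (adjusted p = 0.011). The values rest on 207, 364 and 237 reads in atino80-6 libraries and on 228, 214 and 201 reads in WT libraries, with an exact 95% counting interval of 174 to 231 for the lowest.

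Across all genes tested, 34.2% were called in either direction and 17.7% were called higher in atino80-6, and the genotypes did not overlap for 48.3%. In 24.1% all atino80-6 libraries were above all WT libraries, as PORC was, and 31.2% of the genes in the authors' deposited table had an adjusted p below 0.05. A single call among 3 POR genes is near these shares, so the count says nothing particular about the family.

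Some libraries deviated in the same direction for more than 1 POR gene, although how often other genes do so was not counted. Atino80-6 replicate 1 was the lowest of its genotype for each gene, by -0.47, -0.33 and -0.25 from the group mean on the log2 scale for PORA, PORB and PORC. WT replicate 1 was the highest WT library for PORA (0.26) and PORB (0.29), but not for PORC (0.04). The SD between replicates was 0.33 on the log2 scale for PORA, 0.28 for PORB and 0.23 for PORC. It was smaller than PORA's in 90.5% of the 17187 genes that averaged 50 or more normalized counts, smaller than PORB's in 84.9% and smaller than PORC's in 77.3%. Without the libraries that differed most, atino80-6 replicate 3 and WT replicate 1, the log2 changes were 0.15 for PORA, 0.45 for PORB and 0.63 for PORC.

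**Figure D2:**
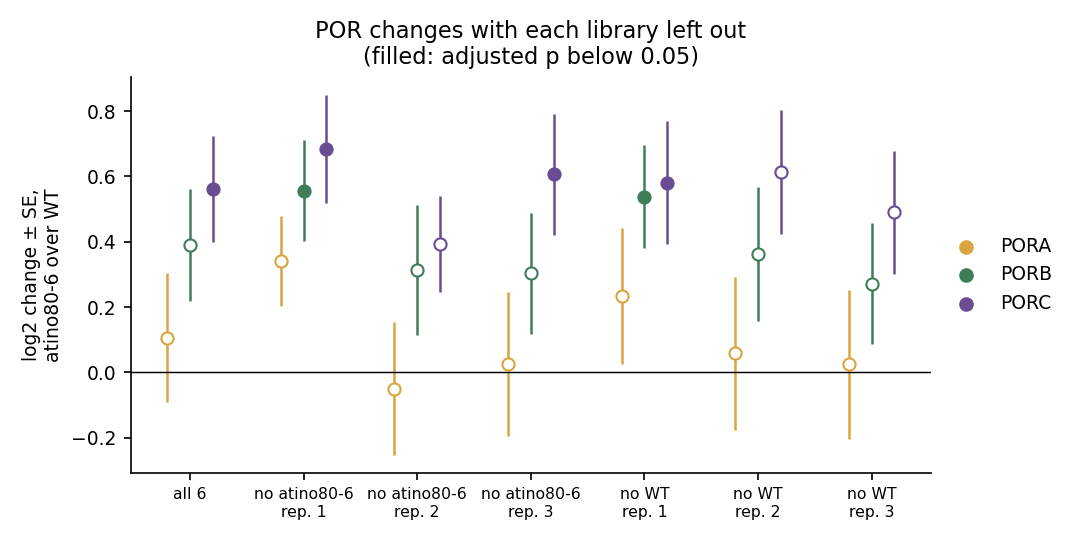
Log2 change of each POR gene (atino80-6 over WT, limma on normalized counts, ± SE) with all 6 libraries and with each library left out; filled symbols have an adjusted p below 0.05. PORA ranges from -0.050 to 0.34, and the calls of PORB and PORC depend on which library is left out.

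Shares and ratios compare the genes within a library and leave out what they have in common there. The share of PORA in the summed POR signal was 31.8%, 36.4% and 33.9% in atino80-6 replicates 1 to 3, against 38.2%, 38.0% and 39.9% in WT replicates 1 to 3. Every atino80-6 value was below every WT value. The mean share was 34.1% ± 2.28 in atino80-6 and 38.7% ± 1.06 in WT (SD, n = 3 each; two-sided exact permutation test p = 0.10, adjusted p = 0.15 over 3 shares). With 3 libraries against 3 this test cannot go below 0.10, so no share could pass. PORB made up 64.0% ± 2.30 in atino80-6 and 59.7% ± 1.12 in WT (exact p = 0.10, adjusted p = 0.15), again without overlap. PORC made up 1.96% ± 0.284 in atino80-6 and 1.62% ± 0.232 in WT, and its shares overlapped (exact p = 0.30). The difference of 0.34 percentage points was 0.21 without WT replicate 1 and 0.50 without atino80-6 replicate 3.

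**Figure D3:**
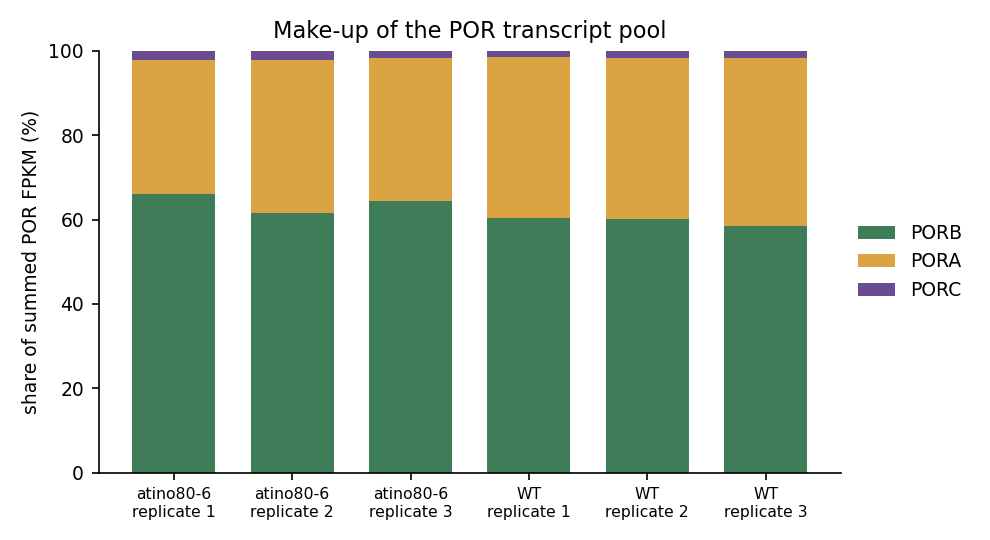
Share of PORB, PORA and PORC in the summed POR signal (percent of FPKM) for each library, atino80-6 on the left and WT on the right. PORB holds between 61.5% and 66.0% in atino80-6 and between 58.4% and 60.5% in WT, and PORC is the thin segment at the top.

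The log2 ratio of PORB to PORA was 1.05, 0.76 and 0.92 in atino80-6, against 0.66, 0.66 and 0.55 in WT, a difference of 0.29 without overlap (exact p = 0.10, adjusted p = 0.15 over 3 ratios). The log2 ratio of PORC to PORA differed by 0.46, likewise without overlap (exact p = 0.10, adjusted p = 0.15). The log2 ratio of PORC to PORB differed by 0.17 with overlapping values (exact p = 0.40), and by 0.04 without WT replicate 1 and 0.30 without atino80-6 replicate 3. These ratios do not depend on the scaling between libraries, and each difference kept its sign without any single library. The summed POR level was 407 ± 85.7 FPKM in atino80-6 and 331 ± 58.6 FPKM in WT (SD, n = 3 each), and the genotypes overlapped (exact p = 0.30). Its log2 difference of 0.29 ranged from 0.18 without atino80-6 replicate 2 to 0.48 without atino80-6 replicate 1.

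The other genes of the magnesium branch, which leads from protoporphyrin to chlorophyll, all rose in atino80-6. There were 12 of them, with a median log2 change of 1.04, against 17.7% called higher and a median of 0.00 over all tested genes. GUN5 (2.28), the large subunit of magnesium chelatase, and GUN4 (1.68), its cofactor, start the branch. The divinyl reductase gene DVR (2.08) also belongs to the branch, and CRD1 (1.85), the cyclase whose product is the substrate pool of POR, acts before POR. CHLP (1.00), which makes the phytyl tail, CHLG (1.22), chlorophyll synthase, and CAO (0.98), which makes chlorophyll b, act after it (limma adjusted p at most 0.0003 for these 7 genes). CHLP, CHLG and CAO, like CHLM below, were picked after their values were seen. Under the alternatives tried, 11 or 12 of the 12 passed. The 5 light-exposure markers (ELIP1, ELIP2, CHS, LHCB1.1 and RBCS1A) rose as well, although all seedlings were labelled as dark-grown. Of these, 3 remained tested and called when genes had to average 50 normalized counts. Their summed level was 3803 to 4597 FPKM in atino80-6 libraries and 591 to 807 FPKM in WT libraries, mostly from RBCS1A, and their part in the changes of the branch was not tested.

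**Figure D4:**
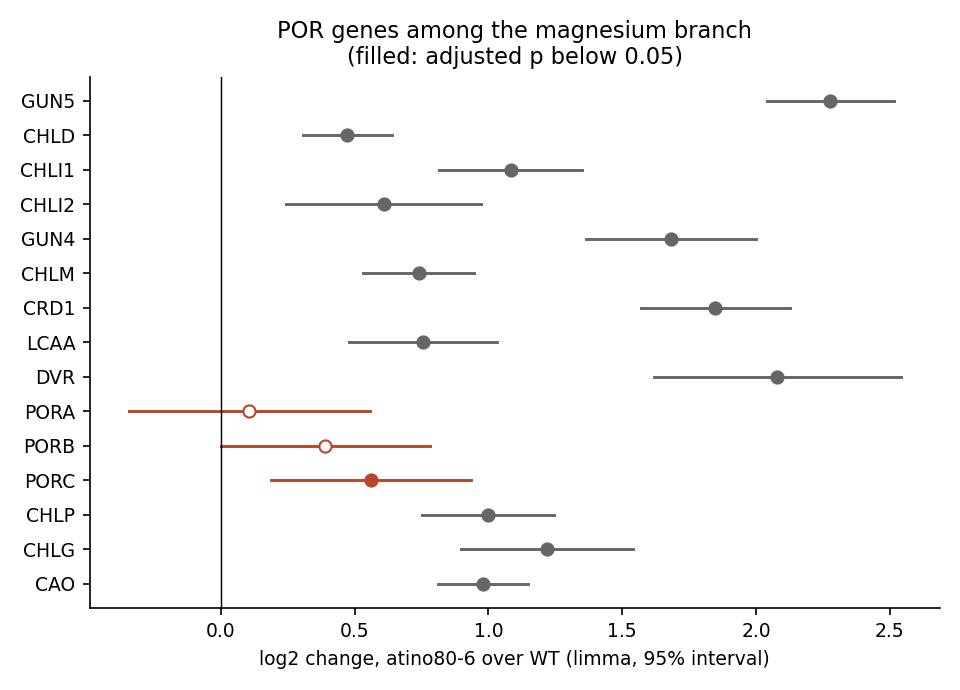
Log2 change with 95% interval (limma, atino80-6 over WT) of the 15 genes of the magnesium branch in approximate pathway order from top to bottom, with the POR genes in red; filled symbols have an adjusted p below 0.05. PORA (0.11) and PORB (0.39) lie below all the other genes of the branch, which range from 0.47 to 2.28. PORC (0.56) lies between CHLD (0.47) and CHLI2 (0.61).

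Set against this branch, the POR part of the transcript pool was smaller in every atino80-6 library than in any WT library; this comparison was added after the data were seen. The POR genes together held 27.3%, 33.5% and 34.7% of the summed FPKM of all 15 branch genes in atino80-6 replicates 1 to 3, against 48.0%, 44.0% and 44.8% in WT replicates 1 to 3. The genotypes did not overlap (exact permutation p = 0.10, the smallest possible), and the difference of the means stayed between -15.2 and -11.5 percentage points with any single library left out. Relative to the mean log2 level of the other 12 genes, the difference of atino80-6 from WT was -1.13 for PORA, -0.84 for PORB and -0.67 for PORC (log2 scale). The POR genes themselves were not lower on average, with log2 changes of 0.11, 0.39 and 0.56, whereas the other 12 genes all rose. Each of these 3 differences was without overlap (exact p = 0.10 each, adjusted p = 0.10 over 3), and they share the same 12 genes as denominator. All 12 had already been seen to rise in atino80-6. The lack of overlap and the p-values of the share and of these differences therefore give no separate support.

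The order of levels within the branch also differed. PORB ranked at place 2, 2 and 1 of 15 in atino80-6 replicates 1 to 3, and at place 1 in every WT library. CHLP reached 280 ± 30.2 FPKM in atino80-6, a mean above that of PORB, and 140 ± 12.4 FPKM in WT. PORA ranked at place 5, 3 and 3 in atino80-6 and at place 2, 3 and 3 in WT. In atino80-6 the PORA values (140 ± 37.0 FPKM) enclosed those of CRD1 (151 ± 10.95 FPKM) and of CHLM (127 ± 6.76 FPKM), the methyltransferase before the cyclase, and every CRD1 value was above every CHLM value. In WT PORA (128 ± 20.6 FPKM) was above CHLM (76.4 ± 7.40 FPKM) and CRD1 (42.3 ± 6.83 FPKM) in every library. PORC ranked at place 15, 14 and 15 in atino80-6, and at place 14 in every WT library.

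**Figure D5:**
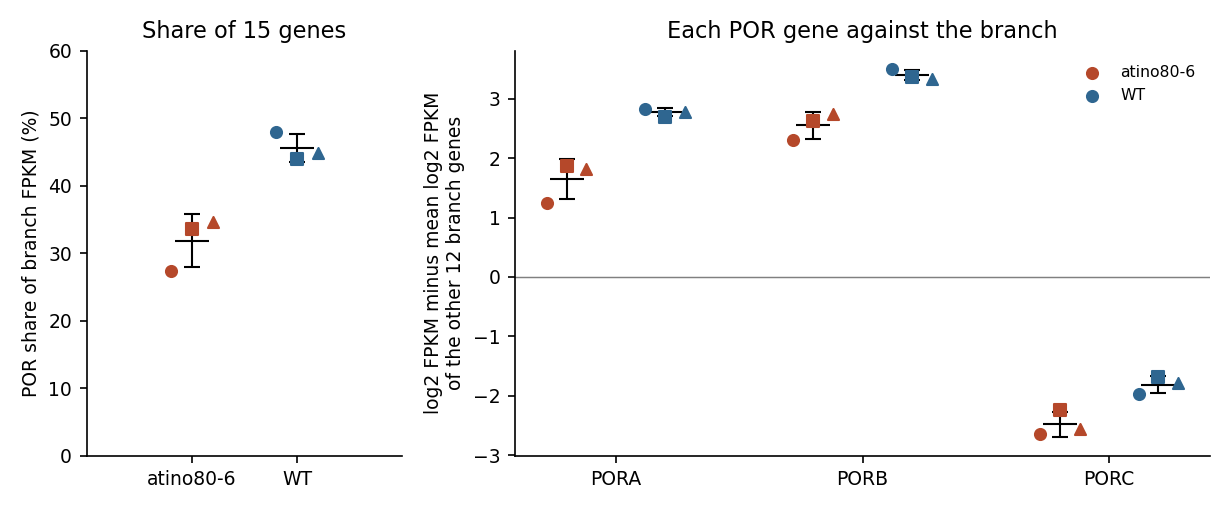
Left, summed POR signal in percent of the FPKM of the 15 genes of the magnesium branch; right, log2 FPKM of each POR gene minus the mean log2 FPKM of the other 12 branch genes. Points are libraries (circle, square and triangle for replicates 1, 2 and 3) and bars give mean ± SD (n = 3); in each of the 4 comparisons the 3 atino80-6 values lie below the 3 WT values.

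Upstream of the branch point, 10 of 15 tested genes of early tetrapyrrole synthesis rose and 1 fell (median log2 change 0.36), which is 73.3% called, against 34.2% of all tested genes. With single libraries left out, between 7 and 10 rose. HEMA1 (1.04), the glutamyl-tRNA reductase that sets the rate of the pathway, HEMD (1.73), uroporphyrinogen synthase, GSA2 (0.80), which makes aminolevulinate, and HEME1 (0.69), a decarboxylase, rose most (limma adjusted p at most 0.0031). Their relatives HEMA2 (0.02, adjusted p = 0.88) and GSA1 (0.09, adjusted p = 0.35) were not called, and both were named after their values were seen. HEMF2 (-0.66, adjusted p = 0.0018), annotated as a coproporphyrinogen oxidase copy, was the member that fell and was named for that. In the haem and bilin branch, which competes for protoporphyrin, 1 of 5 tested genes changed (median -0.13), a share below the 34.2% of all tested genes. This was FC2 (1.29, adjusted p = 6.8e-05), a ferrochelatase. Of 11 genes of the chlorophyll b cycle and of chlorophyll breakdown, 2 rose and 1 fell (median 0.33), which is 27.3% called and near the share over all tested genes. Without atino80-6 replicate 3 and WT replicate 1 together, 5 rose, and 1 haem and bilin gene fell. That setting called more genes of all kinds, with 4435 of 20222 higher and 4384 lower, against 3572 and 3351 with all libraries. SGRL (2.14, adjusted p = 2e-05), a relative of the magnesium-removing STAY-GREEN proteins, and PAO (0.47, adjusted p = 0.0018), pheophorbide a oxygenase, rose. PPH (-0.27, adjusted p = 0.017), pheophytinase, fell, although its adjusted p reached 0.074 with single libraries left out.

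Proteins that hold POR or build the membranes around it were mostly higher at the transcript level, with 8 of 11 tested genes up, 0 down and a median log2 change of 0.69, against 17.7% higher and 16.6% lower over all tested genes. CURT1B (1.72), CURT1A (1.59) and CURT1C (1.13), which bend thylakoid membranes, and LIL3:1 (1.12), a light-harvesting-like protein that anchors chlorophyll synthesis enzymes, rose most (limma adjusted p at most 0.0022). CPP1, a chaperone-like protein that stabilises POR, had 89.9 ± 5.79 FPKM in atino80-6 and 72.5 ± 0.453 FPKM in WT (SD, n = 3 each), a log2 change of 0.31 (adjusted p = 0.012). LIL3:2 changed by 0.50 (adjusted p = 0.011). CPP1 and LIL3:2 were named after their values were seen. They lost their calls without single libraries, at adjusted p up to 0.063 for CPP1 (without atino80-6 replicate 2, and also without WT replicate 2) and 0.051 for LIL3:2 (without atino80-6 replicate 2).

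Of 20 transcriptional and photomorphogenic regulators linked to POR genes or to greening, 8 rose and 4 fell in atino80-6 (median log2 change 0.09), a share above the 34.2% called over all tested genes. Among factors known to act on POR genes, PIF1, a phytochrome-interacting factor that acts in the dark, had 23.8 ± 2.65 FPKM in atino80-6 and 16.6 ± 1.94 FPKM in WT (SD, n = 3 each), a log2 change of 0.52 (limma adjusted p = 0.0083). RVE1, a clock-related MYB factor that promotes PORA transcription, rose, with 50.2 ± 9.22 FPKM in atino80-6 and 15.9 ± 0.761 FPKM in WT (log2 change 1.64, adjusted p = 3.1e-05). Its relative RVE2 went the other way (-0.52, adjusted p = 0.0074). The ethylene factors EIN3 and EIL1, which act on PORA and PORB together with PIF1, moved in opposite directions, with -0.32 for EIN3 (adjusted p = 0.031) and 0.32 for EIL1 (adjusted p = 0.0089). HAM3, of the scarecrow-like family that represses PORC, fell by 0.30 on the log2 scale (adjusted p = 0.024). Its relatives HAM1 (-0.06, adjusted p = 0.58) and HAM2 (-0.009, adjusted p = 0.96) were not called, and both were named after their values were seen.

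EIN3 and HAM3 are the weaker of these calls. Adjusted p reached 0.13 for EIN3 without WT replicate 2 (and passed 0.05 without WT replicate 3 or any single atino80-6 library), and 0.080 for HAM3 without WT replicate 2 (also without WT replicate 3 or atino80-6 replicate 1). With 1 of the libraries WT replicate 2, WT replicate 3 or atino80-6 replicate 1 left out, 2 of the 20 regulators were lower. Of the greening factors, CGA1 (3.47) and GNC (0.76), GATA factors, and GLK2 (0.39), which activates chlorophyll synthesis genes, rose (adjusted p at most 0.012). The size of the CGA1 change is uncertain, because its WT level was low, at 12.2 ± 2.19 normalized counts against 150 ± 51.1 in atino80-6 (SD). On deposited FPKM its log2 change was 1.91. GLK2 missed the threshold without WT replicate 3 (adjusted p = 0.053). Its relative GLK1, named after its values were seen, was not called (-0.24, adjusted p = 0.43). FHY3 (-0.61, adjusted p = 0.0009), which acts with phytochrome A signalling, fell, whereas PIF5 (0.57, adjusted p = 0.00083) and DET1 (0.88, adjusted p = 8.4e-05), a repressor of light responses, rose. Not called were FAR1 (-0.06, adjusted p = 0.59), a relative of FHY3, and PIF3 (0.14, adjusted p = 0.27) and PIF4 (0.07, adjusted p = 0.75). These genes were named after their values were seen. COP1, without which etiolated seedlings lack PORA, stood at 0.12 (adjusted p = 0.25) and HY5, a factor that promotes light responses, at -0.29 (adjusted p = 0.089); both were named after their values were seen.

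The 3 POR genes lie apart from each other, PORA on chromosome 5, PORB on chromosome 4 and PORC on chromosome 1. In the RefSeq annotation of TAIR10.1 the downstream end of PORB overlaps AT4G27450 on the opposite strand, and the upstream end of PORC overlaps AT1G03620 on the opposite strand. AT4G27450 had 9386 ± 240 normalized counts in atino80-6 and 8957 ± 1033 in WT (SD, n = 3 each; log2 change 0.07, limma adjusted p = 0.61). AT1G03620 had 85.1 ± 6.32 in atino80-6 and 79.5 ± 7.17 in WT (log2 change 0.10, adjusted p = 0.68). The labels do not say if strand was recorded, so reads in these overlaps cannot be assigned with certainty, and the same holds for reads from stretches that the related POR genes share. PTAC15, the next protein-coding gene downstream of PORA, rose, with 81.3 ± 9.47 normalized counts in atino80-6 and 37.6 ± 6.82 in WT (adjusted p = 0.0045), while AT5G54200 on its other side stood at -0.13 (adjusted p = 0.23).

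The genes whose profile over the 6 libraries was nearest to each POR gene were found by the root mean square difference of centred log2 values, among 17186 genes. Nearest to PORA were AT1G79420 (0.06), AT3G06840 (0.08) and CLH1 (0.08), a chlorophyllase. Nearest to PORB were AT1G10120 (0.04), a bHLH factor also called CIB4, AT1G74450 (0.06) and AT1G22430 (0.07). Nearest to PORC were AT1G13380 (0.06), the cytochrome P450 gene CYP94D2 (0.07) and FTRA1 (0.08), a subunit of ferredoxin-thioredoxin reductase. The difference was 0.17 between PORA and PORB, 0.21 between PORB and PORC and 0.29 between PORA and PORC. These exceed the values above, which are the smallest among 17186 genes and so are seldom matched by a gene chosen beforehand. In order of nearness, PORB was at place 175 from PORA, and PORA at place 359 from PORB. PORC was at place 922 from PORB and 4169 from PORA. From PORC, PORB was at place 866 and PORA at place 3698. All profiles share the same 6 libraries, and these differences are a description.

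Markers of seed storage and of single organs were read from the same libraries. Seed storage markers summed to between 169 and 1539 FPKM in atino80-6 and between 138 and 506 FPKM in WT, with 2 of 9 called higher. There were 6 without atino80-6 replicate 3, 3 without WT replicate 1 and 1 without any other single library. Without atino80-6 replicate 3 and WT replicate 1 together, 8 of these 9 were called higher, while 4435 of all 20222 tested genes were, against 3572 with all libraries. Root markers summed to 1408 to 1581 FPKM in atino80-6 and 1027 to 1077 FPKM in WT, mostly from PYK10, with 1 of 9 higher and 1 lower. The higher count was 2 without atino80-6 replicate 3 and 0 without any single library other than that and WT replicate 1, and the lower count was 2 without atino80-6 replicate 1. Shoot epidermis, guard cell and vein markers summed to 292 to 343 FPKM in atino80-6 and 351 to 414 FPKM in WT, with 2 of 7 higher and 1 lower, the higher count being 1 without any single library other than atino80-6 replicate 3. Over all tested genes 34.2% were called, so the seed, root and shoot counts with all libraries are near or below the share over all genes. The low seed count does not mean equal levels. Every seed storage marker was higher on average in atino80-6, with a median log2 change of 1.71 (from 0.70 to 3.97). The median was -0.28 for root markers, 0.13 for shoot markers and 0.00 over all tested genes. No marker was at 0 in all libraries of a genotype, and the part of these differences in the POR values was not tested.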

How the data were processed

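RNA of 6 seedling samples was sequenced from TruSeq libraries, per the labels' protocols. The submitters' processing notes name FastQC, cutadapt, HISAT2, SAMtools, featureCounts, DESeq2, deepTools and the build TAIR10; versions and the annotation are not given in the sources used here. The authors deposited FPKM values per library, with DESeq2 size factors between libraries. A second table, deposited by the authors, compares the genotypes and gives a mean signal, log2 fold change and its error, a score (change over error), p-value and adjusted p-value.

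The design assumed normalized counts, whereas the deposited values were FPKM. Each gene's FPKM values were rescaled to average its deposited mean signal, which returns normalized counts, and 146922 of 146922 values then came out as whole reads (within 0.01 reads). The 20222 genes that averaged 10 or more normalized counts were fitted on log2(normalized count + 1) with limma 3.58.1 in R 4.3.3 (empirical Bayes with trend, two-sided, Benjamini-Hochberg over all tested genes, threshold 0.05). "Rose" and "fell" mean past this threshold. The pseudocount slightly understates changes of low genes. Ratios within libraries were taken on FPKM and tested by exact permutation over libraries with scipy 1.17.1. The fit was tested on simulated data.

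Libraries held 18446028 to 24156610 reads; intervals on reads cover counting error only. Of 24487 identifiers, 24255 matched the RefSeq TAIR10.1 table, used for names, gene order and overlaps between neighbouring genes.

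POR genes, the 10 gene lists and the tests were chosen with earlier results of these data known. Named were the POR genes, INO80, up to 4 called genes with the largest change per pathway list, called regulators, and the 3 nearest profiles per POR gene; other names are stated as chosen later. Other settings tried were a pseudocount of 5 or 0.5, a minimum mean of 50 or none, upper-quartile scaling, quantile normalization, equal totals, limma voom on reads, deposited FPKM, robust or untrended empirical Bayes, a block for the repeat number, each library left out, atino80-6 replicate 3 and WT replicate 1 left out together, and normalized counts in place of FPKM for the shares. The comparison with the magnesium branch was added later.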

Additional observations from a re-analysis of the deposited data

How the results depend on the processing

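The direction of each POR change, share and ratio was kept under the alternatives run, except that PORA stood at -0.050 without atino80-6 replicate 2. Over single libraries left out, log2 changes ranged from -0.050 to 0.34 for PORA, 0.27 to 0.56 for PORB and 0.39 to 0.68 for PORC. PORB, not called with all libraries, passed without atino80-6 replicate 3 and WT replicate 1 together (0.45, adjusted p = 0.043). PORC lost its call in limma without the trend (0.56, adjusted p = 0.052). EIN3 and HAM3 also lost their calls without the trend, at adjusted p = 0.062 and 0.055. Limma called 3572 genes higher and 3351 lower, and every alternative stayed within 1.5 times of these counts.

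The repeat numbers did not pair the samples: deviations from the group means correlated over genes at 0.03, -0.19 and -0.10 for replicates 1, 2 and 3, and not every library correlated best with its own number. With the replicate block limma called 3158 genes higher and 2919 lower; PORA, PORB and PORC had adjusted p = 0.74, 0.17 and 0.026. Under the block EIN3 (adjusted p = 0.056) and HAM3 (adjusted p = 0.0502) lost their calls, 2 regulators were lower, 0 root markers and 1 shoot marker were higher, and no other named gene lost its call. The within-library differences kept their values with paired exact p of at least 0.25, the smallest that 3 pairs allow. Depth limits PORC most, with 201 to 364 reads per library; PORA and PORB had at least 3394.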
